A study of Mus musculus with 48 samples.

Results

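The alveolar cultures are described here by their level of Acta2, the gene of smooth muscle alpha-actin. They are the 24 arrays labelled AECII (alveolar epithelial type II cells), out of 48 in the series. The brightest of the 10 Acta2 features, the one with the highest mean over the 48 arrays, was used to rank the 8 arrays of each treatment. The 4 highest of each treatment form the high-Acta2 class (12 arrays) and the 4 lowest the low-Acta2 class (12 arrays). The classes were therefore chosen by a measured value, and the difference of Acta2 between them is a description with no test.

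The cells were isolated from C57Bl/6J mice, 8 in all, and the labels do not say which array holds which mouse. Freshly isolated AECII were plated in DMEM with 10% serum and, 24 h later, given 15% of an electronic-cigarette vapour extract (ECVE) for 24 h. Each cell type has 3 groups of 8 arrays, namely control cells, whose treatment is labelled room air, cells given extract of a nicotine-free liquid (0 mg/ml), and cells given extract of a liquid holding nicotine at 18 mg/ml. The other 24 arrays are of pulmonary arterial smooth muscle cells (PASMC), grown in 15% serum and used here for comparison only. All values are log2 intensities from single-colour arrays that share 1 distribution, with a median near 2.98 and a top value of 15.89. Values near the median are close to background, and the number of arrays limits the precision. Because arrays of different treatments may come from the same mice, p-values over 24 arrays measure the spread between arrays and may be too small. By the correlation of residuals, 12 of the 24 arrays formed 4 triples of 1 array per treatment that were mutually closest, 2 of them within 1 class. Whether the arrays of a triple share a mouse was not tested.

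Smooth muscle alpha-actin is a subunit of contractile filaments. It is a defining protein of smooth muscle cells, pericytes and myofibroblasts, and cultured epithelial cells can also gain it when they lose epithelial traits. Primary alveolar isolates can hold fibroblasts, macrophages and endothelial cells beside the type II cells. In a bulk culture a higher number of Acta2-rich cells and more Acta2 per cell cannot be told apart.

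Many contractile genes carry CArG boxes, elements to which serum response factor binds, and the promoter of Acta2 is known for them. The promoters of Acta2 and of Col1a2 and Serpinf1, the genes of a collagen chain and of a secreted serpin that were higher with Acta2, are shown to make these elements visible. Each is the RefSeq window (assembly GRCm38.p6) from 250 bases before to 50 after the gene's start, written along the gene's strand. Capitals mark CArG-like elements of 10 bases, allowing 1 G or C in the core. The pattern reads the same on both strands.
Acta2, chr19:34255324-34255623, minus strand: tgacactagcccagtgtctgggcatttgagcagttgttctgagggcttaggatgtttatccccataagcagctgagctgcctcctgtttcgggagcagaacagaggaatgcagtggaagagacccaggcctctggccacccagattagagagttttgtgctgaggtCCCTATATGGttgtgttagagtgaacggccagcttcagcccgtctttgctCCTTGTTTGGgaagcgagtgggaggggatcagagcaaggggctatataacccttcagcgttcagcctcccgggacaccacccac
Col1a2, chr6:4505368-4505667, plus strand: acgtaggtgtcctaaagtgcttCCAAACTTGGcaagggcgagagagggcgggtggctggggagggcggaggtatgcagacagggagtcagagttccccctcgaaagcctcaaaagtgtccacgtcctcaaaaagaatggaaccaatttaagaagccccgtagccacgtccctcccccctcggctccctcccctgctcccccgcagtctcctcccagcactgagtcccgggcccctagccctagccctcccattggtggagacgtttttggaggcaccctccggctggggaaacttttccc
Serpinf1, chr11:75422574-75422873, minus strand: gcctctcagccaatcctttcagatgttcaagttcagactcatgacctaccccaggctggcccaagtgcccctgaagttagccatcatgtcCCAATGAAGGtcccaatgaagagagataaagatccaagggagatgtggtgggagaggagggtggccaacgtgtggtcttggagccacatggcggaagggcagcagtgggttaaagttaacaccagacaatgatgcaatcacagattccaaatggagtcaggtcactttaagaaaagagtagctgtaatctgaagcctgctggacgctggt
The Acta2 window held 2 such elements, beginning at -84 and -34 from the start. Those of Col1a2 and Serpinf1 held 1 each, at -228 and -160. An element of this kind was in 9.98% of the 32851 promoter windows, and 2 or more were in 0.822%. Counted by gene, 11.3% had one in any of their windows. Among the 32 genes called higher below, 22 had a window and 5 of these held such an element (Col1a2, Egfl7, Meg3, Plac8 and Serpinf1). Tagln, Actg2 and Thy1, also called higher, had no window and were not searched. A match is a description of the letters.

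Acta2 did not spread evenly over the 8 arrays of a treatment. Ordered from the highest to the lowest, Acta2 was 12.75, 12.74, 11.77 and 11.42 in the high class of the control cultures, against 11.31, 11.26, 11.21 and 11.19 in their low class. With the 0 mg/ml extract it was 12.67, 12.67, 12.17 and 11.55 in the high class, against 11.33, 11.30, 11.22 and 11.11 in the low class. With the 18 mg/ml extract it was 12.83, 12.81, 11.88 and 11.26 in the high class, against 11.25, 11.22, 11.11 and 10.93 in the low class. In each treatment 2 arrays stood near the top, 1 lay between, and the others were close together. The members just inside and just outside the limit differed least with the 18 mg/ml extract, at 11.264 in the high class and 11.250 in the low class. Over the classes, Acta2 averaged 12.21 ± 0.60 in high-Acta2 arrays and 11.20 ± 0.11 in low-Acta2 arrays (SD, n = 12 each). The same gene was at 14.97 ± 0.39 in PASMC (n = 24), above every AECII array.

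**Figure D1:**
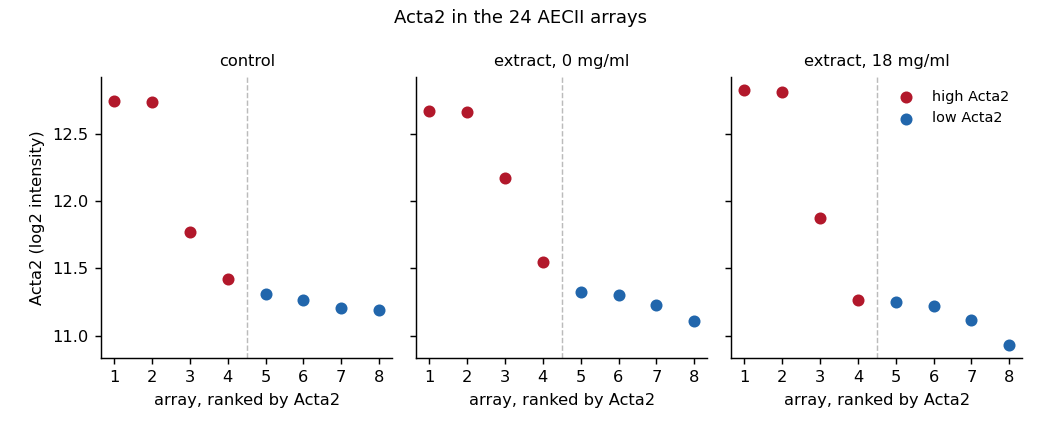
Acta2 log2 intensity (vertical axis) of the 8 AECII arrays of each treatment, ordered by Acta2 (horizontal axis), with the high class left of the dashed line and the low class right of it. In each treatment 2 arrays lie between 12.67 and 12.83, and the low class lies between 10.93 and 11.33.

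The ranking was done within treatments and did not use the treatment means of Acta2, which were compared next. Acta2 averaged 11.75 ± 0.65 with the 0 mg/ml extract and 11.71 ± 0.67 in control cultures (SD, n = 8 each), a difference of 0.046 (95% interval -0.64 to 0.73, limma adjusted p = 0.999). With the 18 mg/ml extract it averaged 11.66 ± 0.76, a difference of -0.045 from control (95% interval -0.73 to 0.64). The intervals are wide against the 1.01 between the classes.

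With treatment as a covariate and 4 arrays set against 4 in each treatment, 32 of 14474 tested genes were higher in the high-Acta2 cultures (0.221% of the genes tested) and 5 were lower (0.0345%), at an adjusted p under 0.05 in limma. The count depended on this split, and 184 genes were called with the 3 highest arrays of each treatment against the 3 lowest. At an unadjusted p under 0.05, 1016 genes were higher and 760 lower. No tested gene was higher in all 12 high arrays than in all 12 low ones (0%).

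Of the contractile list, 2 of 19 tested members rose with Acta2 and none fell. Tagln, the actin-binding protein transgelin of smooth muscle, was at 13.54, 13.78, 13.04 and 12.67 in the high class of the control cultures, in the order of falling Acta2, against 12.53, 12.34, 12.28 and 12.43 in the low class. With the 0 mg/ml extract it was at 13.79, 13.13, 13.26 and 12.90 in the high class, against 12.48, 12.56, 12.36 and 12.23 in the low class. With the 18 mg/ml extract it was at 13.65, 13.77, 12.94 and 12.40 in the high class, against 12.28, 12.35, 12.26 and 12.30 in the low class. The classes did not overlap in any treatment, and the highest Tagln value of each treatment was in 1 of the 2 arrays with the highest Acta2. Over all treatments Tagln was 0.87 higher (standard error 0.14, adjusted p = 0.00922). Actg2, the enteric smooth muscle actin, ranged from 5.89 to 7.85 with a median of 7.08 in high-Acta2 arrays, against 5.06 to 6.36 with a median of 5.90 in low-Acta2 arrays. It was 1.18 higher (standard error 0.22, adjusted p = 0.0184), and its classes overlapped in the control cultures. The median difference of the list was 0.08, beside 0.003 over all genes tested, and 17 of 19 members had a positive difference. Myh11, the smooth muscle myosin heavy chain, was near background at 3.13 in the high class and 3.15 in the low class.

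Of the collagen and matrix list, Col1a2 alone of 26 members passed. It ranged from 11.83 to 12.53 with a median of 12.24 in high-Acta2 arrays, against 11.13 to 12.05 with a median of 11.57 in low-Acta2 arrays. The difference was 0.59 (standard error 0.11, adjusted p = 0.0126), and only in the control cultures did the classes not overlap. Col1a1, which encodes the partner chain of type I collagen, was at 11.19 ± 0.23 in high-Acta2 arrays and 10.84 ± 0.22 in low-Acta2 arrays (difference 0.35, adjusted p = 0.120). The difference was positive for 23 of the 26 members, with a median of 0.19, and 13 members were positive in all 3 treatments, beside 2845 of 14474 genes.

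Of the fibroblast list, 2 of 23 members rose and none fell. Thy1, a surface protein of fibroblasts and T cells, was at 7.06 ± 0.43 in high-Acta2 arrays and 6.06 ± 0.41 in low-Acta2 arrays, 1.00 higher (standard error 0.16, adjusted p = 0.00922). In high-Acta2 arrays the range was 6.06 to 7.76 with a median of 7.12, and in low-Acta2 arrays 5.09 to 6.67 with a median of 6.11. One high-class control array, replicate 7, was at 6.06 and lay within the low class, while with each extract the classes did not overlap. Serpinf1 was 1.08 higher (standard error 0.21, adjusted p = 0.0270), at 7.49 ± 0.63 in high-Acta2 arrays against 6.41 ± 0.37 in low-Acta2 arrays. The median of the list was -0.006 although its mean was 0.05, and 11 of 23 members were positive.

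No member of the pericyte list (10 tested), the TGF-beta list (21) or the mesenchymal transcription factor and cadherin list (16) passed in this split. Their median differences were 0.19, 0.13 and 0.21. Thbs1, the matrix protein thrombospondin 1, which can activate TGF-beta, had the smallest p of these, at 12.91 ± 0.32 in high-Acta2 arrays and 12.47 ± 0.21 in low-Acta2 arrays (adjusted p = 0.101). Tgfbi, a matrix protein induced by TGF-beta, averaged 5.88 in high-Acta2 arrays and 5.17 in low-Acta2 arrays (adjusted p = 0.197). Itga8, an integrin chain of mesenchymal cells, averaged 5.19 in the high class and 4.57 in the low class (adjusted p = 0.272). The transcription factor genes Zeb2 and Tbx5 averaged 6.93 and 4.19 in the high class, against 6.51 and 4.77 in the low class (adjusted p = 0.334 and 0.320).

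**Figure D2:**
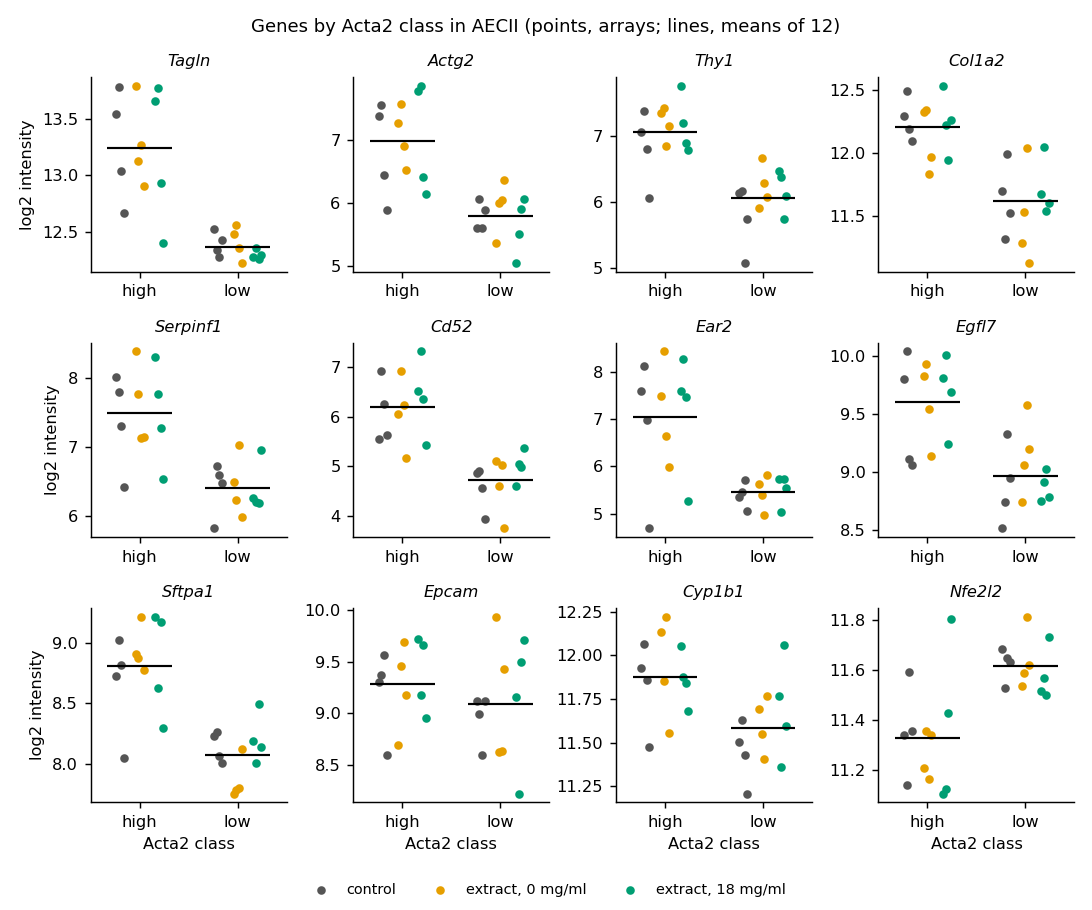
Log2 intensity (vertical axis) of 12 genes in the high and low Acta2 classes of AECII (horizontal axis), with points for arrays coloured by treatment and lines for the mean of 12 arrays. Tagln lies at 12.40 to 13.79 in the high class and at 12.23 to 12.56 in the low class, and Epcam overlaps throughout.

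The epithelial lists gave 1 call between the classes. Of 24 type II cell markers 1 rose and none fell, and no member of the type I (20), transitional (17), airway (14) and general epithelial (32) lists passed in either direction. Their medians were 0.12, 0.05, 0.06, 0.15 and -0.01. In the same order 16, 14, 15, 10 and 10 members had a positive difference. Sftpa1, which encodes surfactant protein A, ranged from 8.04 to 9.21 with a median of 8.84 in high-Acta2 arrays, against 7.75 to 8.49 with a median of 8.09 in low-Acta2 arrays. It was 0.74 higher (standard error 0.12, adjusted p = 0.00922), and its classes did not overlap with the 0 mg/ml extract. Sftpc, the type II marker surfactant protein C, was at 14.46 ± 0.27 in high-Acta2 arrays and 14.17 ± 0.21 in low-Acta2 arrays (adjusted p = 0.235). The surface adhesion molecule Epcam was at 9.28 ± 0.38 in high-Acta2 arrays and 9.09 ± 0.50 in low-Acta2 arrays (95% interval of the difference -0.18 to 0.57). Cdh1, E-cadherin, was at 11.96 ± 0.23 in high-Acta2 arrays and 11.96 ± 0.25 in low-Acta2 arrays (95% interval -0.21 to 0.21). Elf3 had the smallest p of the general epithelial list, at 6.37 ± 0.39 in high-Acta2 arrays and 6.85 ± 0.38 in low-Acta2 arrays (difference -0.48, limma adjusted p = 0.194). A p that misses the threshold does not show that the classes were alike. The club cell secretoglobin Scgb1a1 was at 15.76 in the high class and 15.74 in the low class, close to the top of the scale, so a difference there could not be measured well. As a check of the labelled cell type, Sftpc was at 13.80 or more in all 24 AECII arrays and averaged 6.05 ± 3.69 in PASMC (SD, n = 24). The PASMC arrays ranged from 1.72 to 11.82 with a median of 4.23, so some of them carried a clear Sftpc signal, below every AECII array.

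The genes of xenobiotic metabolism gave no call in the class comparison, and calls from another split of the arrays are given below. None of 11 aryl hydrocarbon (Ah) receptor genes, 31 phase 1 enzymes and 29 phase 2 enzymes passed. Nor did any of 28 genes of the NRF2 list (NRF2 targets and regulators), 22 aldehyde-metabolising genes and 14 transporters. The Ah receptor list had a median difference of 0.30, and 8 of its 11 members were positive in all 3 treatments. Cyp1b1, an Ah receptor target, was at 11.88 ± 0.23 in high-Acta2 arrays and 11.58 ± 0.23 in low-Acta2 arrays (difference 0.30, adjusted p = 0.175). The quinone reductase Nqo1, a target of both Ah receptor and NRF2, was at 9.30 ± 0.27 in high-Acta2 arrays and 8.76 ± 0.61 in low-Acta2 arrays (difference 0.54, adjusted p = 0.199). Cyp1a1 was at 8.85 ± 0.99 in high-Acta2 arrays and 8.26 ± 0.81 in low-Acta2 arrays (adjusted p = 0.544). The NRF2 list had a median of 0.06, and Nfe2l2, which encodes NRF2, was at 11.33 ± 0.21 in high-Acta2 arrays and 11.61 ± 0.09 in low-Acta2 arrays (difference -0.28, adjusted p = 0.101). Hmox1, haem oxygenase 1, was at 11.95 ± 1.23 in high-Acta2 arrays and 12.31 ± 0.52 in low-Acta2 arrays (adjusted p = 0.741), and the glutathione transferase Gsta1 at 12.93 ± 0.33 in high-Acta2 arrays and 12.87 ± 0.35 in low-Acta2 arrays (adjusted p = 0.888). Cyp2e1, a phase 1 enzyme near background, was at 3.23 in the high class and 2.58 in the low class (adjusted p = 0.102). Gstm7 and Sult1a1 (phase 2), also near background, averaged 2.74 and 2.93 in the high class, against 3.21 and 2.53 in the low class (adjusted p = 0.156 and 0.357). Dhrs3 and Aldh3b1 (aldehyde list) averaged 8.66 and 7.06, against 9.46 and 6.75 (adjusted p = 0.169 and 0.183). The transporter genes Abcb1a and Abcg2 averaged 4.41 and 8.58, against 5.10 and 8.27 (adjusted p = 0.182 and 0.256).

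Markers of other cell types were compared between the classes as well. Of 21 macrophage markers none passed. At an unadjusted p under 0.05, 11 were higher, beside 1016 of all 14474 genes tested, and the median difference was 0.64. The mean of this list ranged from 5.54 to 7.55 in high-Acta2 arrays, against 5.51 to 6.42 in low-Acta2 arrays. Ear2, a ribonuclease of lung macrophages, ranged from 4.69 to 8.43 with a median of 7.48 in high-Acta2 arrays, against 4.97 to 5.82 with a median of 5.50 in low-Acta2 arrays (difference 1.60, adjusted p = 0.0533). Its lowest high-class values were those of control replicate 7 and 18 mg/ml replicate 5, the fourth arrays of their treatments by Acta2. Marco, a macrophage scavenger receptor, was at 7.92 ± 0.99 in high-Acta2 arrays and 6.94 ± 0.69 in low-Acta2 arrays (adjusted p = 0.230). Cd52, a surface glycoprotein of leukocytes, was at 5.55, 6.93, 6.25 and 5.64 in the high class of the control cultures, in the order of falling Acta2, against 4.87, 4.91, 4.56 and 3.95 in the low class. Over all treatments it was 1.47 higher (standard error 0.22, adjusted p = 0.00922). Cd52 and Tagln were the only 2 tested genes (0.0138%) whose high class lay above the low class without overlap in every treatment. Within a single treatment the high class lay wholly above for 2.08% of genes in control cultures, 1.91% with the 0 mg/ml extract and 1.52% with the 18 mg/ml extract.

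Of 13 endothelial markers 1 rose. Egfl7, which encodes a secreted endothelial protein, was at 9.60 ± 0.37 in high-Acta2 arrays and 8.96 ± 0.29 in low-Acta2 arrays (difference 0.63, adjusted p = 0.0465). The median of the list was 0.45, and its mean ranged from 5.14 to 6.34 in high-Acta2 arrays, against 5.26 to 5.85 in low-Acta2 arrays. The lymphocyte, neutrophil and mast cell, mesothelial and erythroid lists had no call, with medians of 0.01, -0.06, -0.04 and 0.39. The neutrophil gene S100a8 was at 7.99 ± 1.01 in high-Acta2 arrays and 9.19 ± 0.76 in low-Acta2 arrays (adjusted p = 0.159). Hba-a2, an alpha-globin gene of red cells, was at 5.86 ± 0.65 in high-Acta2 arrays and 4.63 ± 1.03 in low-Acta2 arrays (adjusted p = 0.113). With the 2 highest arrays of each treatment set against the other 6, an alternative added after the data were seen, 9 of the 21 macrophage markers and 6 of the 13 endothelial markers were called higher and none lower, where 1.37% of all genes were called higher and 0.511% lower. Ear2 was then 2.23 higher (adjusted p = 0.000521) and Egfl7 0.83 higher (adjusted p = 0.00247). In that split 2 of 19 contractile, 3 of 26 collagen and matrix and 3 of 23 fibroblast genes were called higher. So were Pdgfrb of the pericyte list (0.75, adjusted p = 0.00437) and Thbs1 of the TGF-beta list (0.61, adjusted p = 0.00408). Fabp5 was the only type II marker called (0.51 higher, adjusted p = 0.00548). None of these lists had a lower call. Of the xenobiotic lists, Nfe2l2 (-0.35, adjusted p = 0.0265) and Dhrs3 (-1.23, adjusted p = 0.00548) were called lower and no gene higher. The part of other cell types in the class differences was not tested.

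**Figure D3:**
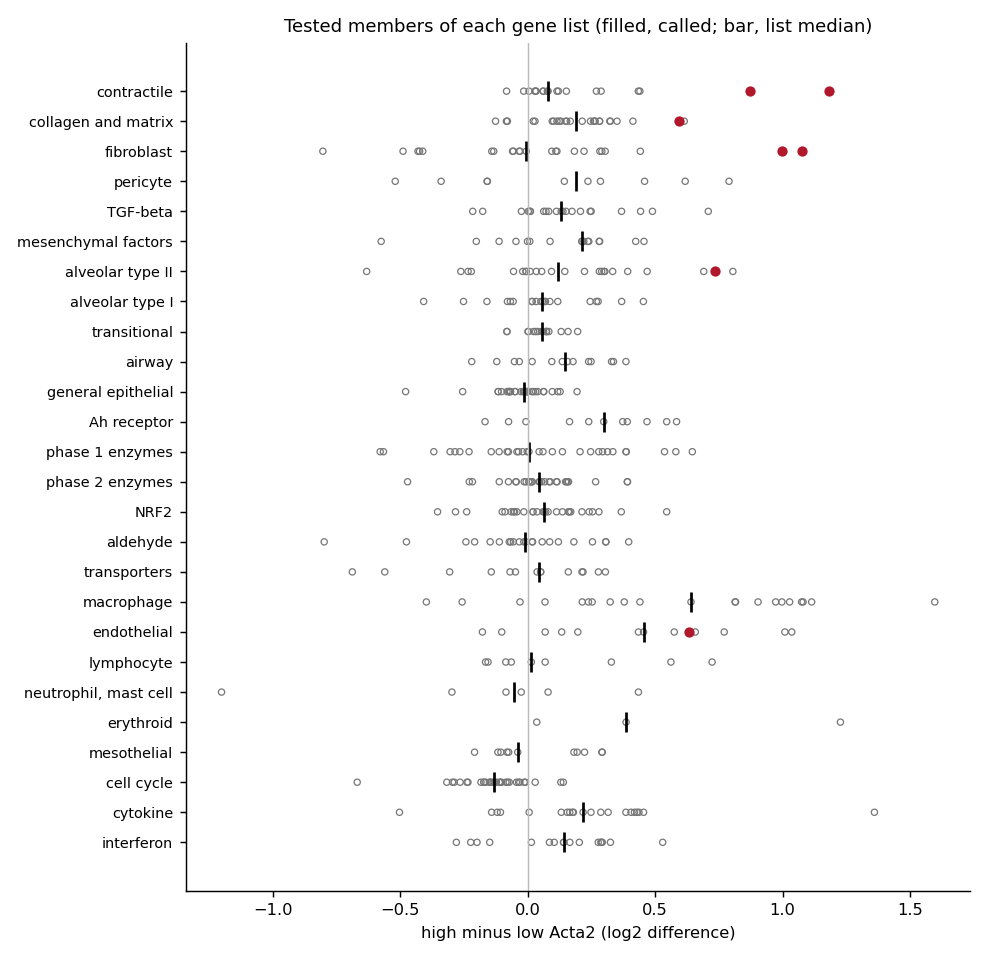
Difference between high and low Acta2 classes in AECII (horizontal axis, log2) for the tested members of the gene lists (vertical axis), with filled points for genes that passed and bars for list medians. The macrophage and endothelial medians, 0.64 and 0.45, lie furthest to the right, and the general epithelial median is -0.01.

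The other genes with the smallest p that were higher with Acta2 were Fscn1, the actin-bundling protein fascin (0.77), Col18a1, a basement membrane collagen (0.64), the imprinted non-coding RNA gene H19 (1.31), and the chemokine Ccl9 (1.11). Ch25h, which makes 25-hydroxycholesterol (1.27), Ctla2a, a cathepsin inhibitor (1.43), the lysosomal lipase Lipa (0.56) and the growth factor Igf1 (0.62) followed, all at adjusted p values from 0.00922 to 0.0112. The 5 lower genes were Tgfbrap1 (-1.09, near background in the high class at 3.06), the glycosyltransferase Mgat3 (-0.69), Ly6k (-0.71), the anti-apoptotic gene Bcl2l1 (-0.27) and the Hsp70-interacting protein St13 (-0.24), each at an adjusted p of 0.0465. They were called in only 6, 5, 4, 3 and 3 of the 24 fits that leave out 1 array, with adjusted p values up to 0.0934. No member of the cytokine, interferon, early response or hypoxia and glycolysis lists passed, with medians of 0.22, 0.14, 0.08 and -0.07. The acute-phase protein Saa3 was at 5.52 ± 1.02 in high-Acta2 arrays and 4.16 ± 0.80 in low-Acta2 arrays (adjusted p = 0.118). Of the sex-linked genes only Eif2s3y was bright enough to be tested, with a difference of -0.06. The cell cycle list had no call, a median of -0.13 and a positive difference in 3 of 31 members. Aurka and Plk1, kinases of mitosis, averaged 9.67 and 10.56 in the high class, against 9.91 and 10.82 in the low class (adjusted p = 0.206 and 0.257).

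The count of genes depended on where the line between the classes was drawn. With the 2 highest arrays of each treatment against the other 6, 272 genes were called, 198 higher and 74 lower, and 27 of them were among the 37. Sftpa1 was not among these (difference 0.61, adjusted p = 0.108). With the Acta2 level as a continuous covariate 419 genes were called, 36 of them shared. Within each treatment alone, 4 arrays against 4, none was called (950, 822 and 810 at an unadjusted p under 0.05). A test against a minimum fold of 1.2 called none of the genes. Leaving out single arrays gave 17 to 124 genes, the most without control replicate 7, and 100 without 18 mg/ml replicate 5. Tagln, Thy1, Cd52, Actg2, Col1a2 and Sftpa1 were called whichever single array was left out, whereas Serpinf1 was called in 12 of 24 such fits and Egfl7 in 7.

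The question whether the Acta2 classes answered the extracts differently was put to the same arrays. With the class as a covariate no gene was called for the 0 mg/ml extract (0% of 14475, 500 genes at an unadjusted p under 0.05) or for the 18 mg/ml extract (0%, 361 genes). No gene was called for the difference between the classes in the response, for the 0 mg/ml extract (0%, 429 genes) or for the 18 mg/ml extract (0%, 468 genes). Without control replicate 4, Dcdc2a was called for the first of these differences (-2.61, adjusted p = 0.0188), and without 0 mg/ml replicate 5, Prm2 was (-1.67, adjusted p = 0.0291). Prm2 is named because it was this single call. The NRF2 list had a median response to the 18 mg/ml extract of 0.19 in high-Acta2 cultures and 0.17 in low-Acta2 cultures. Of its 28 members, 26 were positive in the high class and 23 in the low class. Over all 14475 genes, 7240 were positive in the high class and 8129 in the low class. To the 0 mg/ml extract the medians were 0.05 in high-Acta2 cultures and 0.07 in low-Acta2 cultures. Gsta1, the glutathione transferase, was 0.50 higher with the 18 mg/ml extract than in control cultures (standard error 0.13, unadjusted p = 0.000950) and did not pass over all genes (adjusted p = 1.00). Nqo1 was 0.36 higher (standard error 0.22) and Hmox1 0.51 higher (standard error 0.44), neither called. The genes with the smallest p were Dcaf5, Olfr1 and Zhx2 for the 0 mg/ml extract (-0.54, 1.08 and -0.84) and Serpinc1, B4galt7 and Olfr1012 for the 18 mg/ml extract (0.88, -0.57 and 0.77). For the difference between the classes they were Dcdc2a, Dync2h1 and Efcab1 with the 0 mg/ml extract (-2.30, -1.003 and -1.63) and Wap, Gli1 and Inka2 with the 18 mg/ml extract (-1.71, -1.93 and -1.96). All extract comparisons share the same 8 control arrays.

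**Figure D4:**
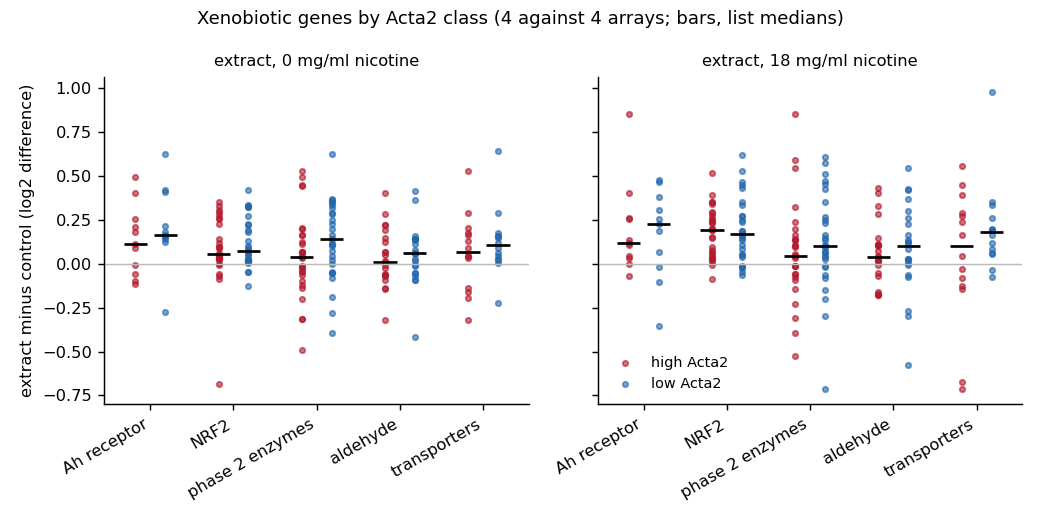
Response of xenobiotic genes to each extract (vertical axis, extract minus control, log2), in the high and low Acta2 classes (4 against 4 arrays each), with points for genes and bars for list medians. The NRF2 medians with the 18 mg/ml extract, 0.19 in the high class and 0.17 in the low class, lie close together.

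The same ranking was made in PASMC, where Acta2 averaged 15.29 ± 0.18 in the high class and 14.65 ± 0.25 in the low class (SD, n = 12 each). The PASMC calls come from a limma fit of all 48 arrays, which share 1 estimate of the spread over both cell types. It called 4363 genes of 14765 in PASMC (29.5%), 14.8% higher and 14.7% lower. The class difference of AECII minus that of PASMC was called for 2382 genes (16.1%), 1247 higher and 1135 lower. For AECII this fit called 34 genes higher and 13 lower, and Cd52 was not called (adjusted p = 0.273). Of the 32 genes that were higher with Acta2 in AECII, 12 were also called higher in PASMC and 9 were called lower. For 13 of the 32 genes the class difference differed between the cell types. Genes could enter this fit through their AECII level, so a call in PASMC does not show a clear signal there. Sftpa1, among the 12, averaged 2.48 in PASMC, near background (class difference 0.53 in PASMC, adjusted p = 0.0375). Thy1 differed by 1.00 in AECII and -0.76 in PASMC (difference 1.76, adjusted p = 2.76e-05), and Ch25h by 1.27 in AECII and -1.02 in PASMC (difference 2.29, adjusted p = 7.47e-06). Serpinf1, Col1a2 and H19 differed by 1.08, 0.59 and 1.31 in AECII and by -0.79, -0.45 and -1.05 in PASMC, each with a called difference between the cell types. Tagln and Actg2 were higher with Acta2 in both cell types, by 0.87 and 1.18 in AECII and by 0.46 and 0.96 in PASMC, with adjusted p values of the difference of 0.0895 and 0.707. In PASMC 15 of 21 contractile genes rose with Acta2 and 1 fell, while 11 of 23 fibroblast genes fell and 3 rose.

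The other genes with the strongest difference between cell types changed in PASMC. Pygl, Vegfd and Zbp1 had class differences of 0.24, 0.38 and 0.53 in AECII and of -0.65, -3.18 and -2.32 in PASMC. Zbp1 averaged 2.80 in AECII, near background, and 7.52 in PASMC. Mal, Tgfb2, Ano1, Adgrg1 and Ankrd52 were at 0.02, -0.18, -0.06, -0.07 and -0.11 in AECII and at 3.42, 1.64, 2.12, 2.12 and 1.00 in PASMC. Of the general epithelial genes 20 of 32 rose with Acta2 in PASMC (median 0.60), beside the 14.8% of all genes called higher there. Genes of this list could enter the fit through their AECII level, and the 14.8% covers genes of all levels. Elf3 and Epcam averaged 2.56 and 3.17 in PASMC, near background. Cdh1 averaged 4.15 ± 1.66 in PASMC (SD, n = 24), with a class difference of 2.44 (adjusted p = 7.95e-07). The part of epithelial RNA in PASMC was not tested.

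**Figure D5:**
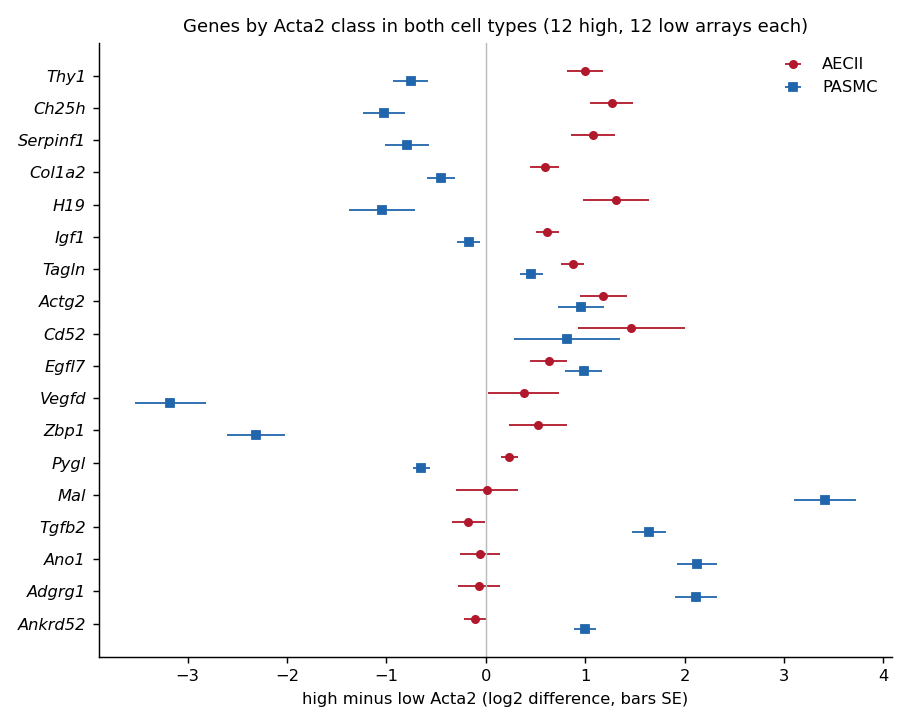
High minus low Acta2 class difference (horizontal axis, log2, bars for standard errors) of 18 genes in AECII and PASMC (12 high and 12 low arrays each). Thy1, Ch25h, Serpinf1, Col1a2 and H19 lie right of 0 in AECII and left of it in PASMC, while Tagln and Actg2 lie right of 0 in both.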

How the data were processed

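The authors deposited 1 log2 value per feature and array (62976 features, 28 missing values). The submitters' processing notes name limma with no version or step. The quantiles of all arrays coincide, so these deposited log2 values had been quantile normalised. Of the features 31465 carry a gene name, updated to RefSeq GRCm38.p6 symbols. For each of 20738 genes the brightest feature, by its mean in the 48 arrays, was kept. Genes entered a fit with no missing value and an average over its arrays above 2.73, the 30th percentile of the named features' means over the 48 arrays. The percentile over the 24 AECII arrays, 2.67, was an alternative added later.

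Models were fitted with limma 3.58.1 (R 4.3.3, statmod 1.5.0) by lmFit and eBayes, two-sided, with treatment and Acta2 class as factors, with Benjamini-Hochberg adjustment over all genes tested. A gene was called at an adjusted p under 0.05. The procedure was tested on simulated data. Promoters were searched with Python 3.11.15, and figures drawn with matplotlib 3.10.9.

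The members and the 29 gene lists were chosen with earlier results of these data known. Genes named were mostly drawn from the following sets, and not every member is given. The first was the 12 called per direction with the smallest p, the same sign in all 3 treatments and a mean above the array median. Others were up to 6 called members of each list (otherwise the 2 with the smallest p) and a set of 13 readouts. The last were up to 5 per direction in the difference between cell types, and the 3 with the smallest p in the other comparisons. Alternatives were the filter, normalisation, features per gene, class definition, blocks, eBayes settings, array weights, a minimum fold and leaving out each array. Replicate numbers of the labels did not pair the arrays: over 24 same-number pairs of residuals the median correlation was 0.042. Under other numbers 4 mutually closest triples held 12 arrays.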

Additional observations from a re-analysis of the deposited data

Results flagged for a closer look

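Of 231 groups of 8 arrays examined, 15 had 1 array far from the other 7, and chance gives such an array in about 1 group of 20. For Hmox1 it was replicate 2 of the 0 mg/ml extract, a high-Acta2 array, at 8.29 (next 11.47). Nqo1 was low in 1 low-Acta2 array of each treatment, at 7.49 (control replicate 6), 8.25 (0 mg/ml replicate 1) and 7.88 (18 mg/ml replicate 7). Low values were also found for Ly6k (3.23, control replicate 8), Hopx (9.30, control replicate 3), Fosl1 (7.23) and Gbp2 (5.00), both in 0 mg/ml replicate 1, and Gstm7 (2.03, 18 mg/ml replicate 8). High values were found for H19 (6.10) and Isg15 (8.74) in 18 mg/ml replicate 8, Elf3 (7.01, 18 mg/ml replicate 7), Msln (14.55, 0 mg/ml replicate 1), Rspo1 (9.50, control replicate 7) and Hba-a1 (4.74, 0 mg/ml replicate 7).

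The class difference in AECII and that in PASMC differed by test for many genes. The 10 given here are the 5 per direction with the smallest p. Other named genes, among them H19, Igf1, Cyp1b1, Nqo1 and Cdh1, were called as well. AECII minus PASMC was 2.29 for Ch25h, 0.89 for Pygl, 3.56 for Vegfd, 1.76 for Thy1 and 2.84 for Zbp1, which was near background in AECII. AECII minus PASMC was -3.40 for Mal, -1.82 for Tgfb2, -2.18 for Ano1, -2.19 for Adgrg1 and -1.11 for Ankrd52.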

How the results depend on the processing

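The 37 genes of the class comparison became 21 with no filter, 60 with the filter at the 50th percentile, 18 with the mean of all features of a gene, 64 with trend and robust fitting and 73 with array weights. They became 419 with the Acta2 level as a continuous covariate, 184 with the top 3 against the bottom 3, 272 with the top 2 against the other 6 and 60 without the 2 arrays at the limit with the 18 mg/ml extract, the last pair of settings chosen after seeing the data. Ranking by Acta2 feature 2 or 4 gave 69, and by feature 3, 8 or 9 gave 102. Features 6 and 10 changed the classes too, and their counts are not given here. A minimum fold of 1.2 left 0, as did each treatment alone. Leaving out 1 array gave 17 to 124, and 0 or 1 for the difference of the classes in the response to the 0 mg/ml extract. With the replicate number as a replicate block 0 genes were called, and 23 as a random block; the numbers did not pair the arrays, and 1 of 24 arrays correlated best with its own number. With the replicate block the difference between AECII and PASMC gave 2108 genes and the extract comparisons 0. Acta2 itself differed by 0.046 (0 mg/ml) and -0.045 (18 mg/ml) with or without the replicate block. The causes of these changes were not tested. With the filter at the percentile over the 24 arrays, added later, the 37 genes were called again.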
